A study of Mus musculus with 3 samples.

Results

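Wnt receptor and feedback genes were represented on the imaging panel by 6 of its 258 genes: Lrp5, Lgr4, Lgr5, Znrf3, Axin2 and Rspo1. The rule names the genes and uses no measured value, although the set was proposed with earlier results of these data known. Their transcripts were counted in single cells of sections from 3 MMTV-PyMT mammary tumours, fixed in formalin, embedded in paraffin and imaged on the Vizgen MERSCOPE platform. All 3 tumours carry the label WT and form a single group without a control, in which the mouse mammary tumour virus promoter drives the polyoma middle T oncogene. The sources used here do not say what WT refers to, how old the mice were or whether the tumours came from different animals, so p-values measure only the spread between these 3 tumours.

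In canonical Wnt signalling a secreted Wnt ligand binds a Frizzled receptor together with the co-receptor LRP5 or LRP6. The destruction complex built on AXIN is then held back, beta-catenin accumulates, and TCF/LEF factors switch on target genes. AXIN2 and the membrane E3 ligases ZNRF3 and RNF43 are among those targets and dampen the pathway, AXIN2 by promoting the loss of beta-catenin and the ligases by removing Frizzled from the cell surface. R-spondins such as RSPO1 bind LGR4 or LGR5 and relieve the brake that ZNRF3 and RNF43 impose. In the normal mammary gland, R-spondin and Wnt signals are known for maintaining basal and progenitor cells, and in the intestine Lgr5 is known as a stem cell marker.

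Axin2 defines the area of tumour 3 described below, and its promoter is therefore shown. The RefSeq promoter table held 3 of the 6 genes: Lgr4, Rspo1 and Axin2. The 250 bases before the Axin2 start lie at chr11:108920099-108920348 on the plus strand of GRCm38.p6, with GC boxes in capitals.
Axin2 promoter: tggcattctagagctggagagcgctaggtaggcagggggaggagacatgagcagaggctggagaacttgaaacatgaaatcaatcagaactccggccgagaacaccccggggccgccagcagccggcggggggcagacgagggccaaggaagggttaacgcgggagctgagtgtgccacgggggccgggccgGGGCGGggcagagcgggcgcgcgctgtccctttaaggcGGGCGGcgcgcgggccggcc
The stretch was 69.2% G and C, against a median of 52.4% over 32851 promoters of the same length. It held 2 GC boxes (GGGCGG, both strands searched), a word present in 32.74% of those promoters. It held 0 matches to the TCF/LEF words, CTTTG followed by AA, AT, TA or TT, on either strand. At least 1 of these words was present in 14.84% of promoters. A match or its absence describes only these letters in this window.

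Tumours 1, 2 and 3 contributed 663145, 513963 and 786165 listed cells and 71492483, 60759690 and 78051090 panel transcripts. No cell identifier was shared between sections (0 in each pair). After filtering, 619508, 453800 and 673592 cells inside the tissue remained, with medians of 98, 106 and 94 panel transcripts. The panel also carries 27 blank codes, barcodes assigned to no gene that show how often decoding errs, and these took 0.503%, 0.481% and 0.496% of decoded transcripts. Over the whole panel, 132 of 258 genes exceeded the highest blank in every section.

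Of the 6 genes, Lrp5, Lgr4 and Znrf3 exceeded the highest blank code in all 3 sections, and Lgr5 and Rspo1 did so in none. Lrp5, which encodes the co-receptor, had 2012411, 1462267 and 1791142 transcripts in tumours 1, 2 and 3, between 52.6 and 57.9 times the highest blank. It was found in 78.9%, 73.8% and 68.2% of all listed cells. Lgr4, an R-spondin receptor gene, had 152035, 96968 and 80289 transcripts, 4.37, 3.48 and 2.47 times the highest blank. Tumour 3 thus had the fewest Lgr4 transcripts although it had the most panel transcripts.

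Znrf3 lay just above the blanks, with 49640, 29754 and 42436 transcripts, 1.43, 1.07 and 1.30 times the highest blank. Axin2 was the gene that differed most between the tumours, with 61530, 25943 and 142660 transcripts. These amount to 1.77, 0.932 and 4.38 times the highest blank, so that in tumour 2 the gene stayed below it. Among the filtered cells alone, Axin2 of tumour 2 had 24699 transcripts against 24602 for the highest blank, a ratio of 1.004.

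Lgr5 had 12895, 8107 and 12068 transcripts and Rspo1, the R-spondin ligand gene, had 12065, 8017 and 12036. The median blank had 12959, 10242 and 12911, and 14, 16 and 16 blanks lay at or above each of these genes. Neither gene could be told from false decoding at this depth, and all later values of Lgr5 and Rspo1 are given with that limit.

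**Figure D1:**
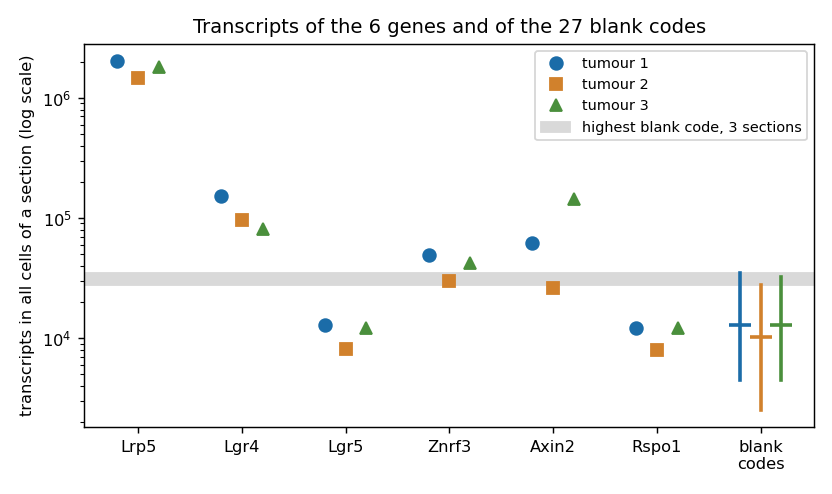
Transcripts of each of the 6 genes in all cells of each section (points, log axis), beside the range of the 27 blank codes (vertical lines, with the median as a dash) and the range of the highest blank over the 3 sections (grey band). Lrp5 and Lgr4 lie above the band in every tumour, Znrf3 lies within it in tumour 2 and above it in tumours 1 and 3, Axin2 spans from below it in tumour 2 to 142660 in tumour 3, and Lgr5 and Rspo1 lie among the blanks.

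Cells were gated by markers that include none of the 6 genes. A gate needed at least 3 transcripts over at least 2 of its markers: Pecam1 and Cdh5 (endothelial genes), Pdgfrb and Rgs5 (pericyte genes), 6 fibroblast genes led by Col1a1, Cx3cr1 and H2-Aa (myeloid genes), Krt5 and Krt14 (basal keratins), or Tagln and Mylk (contractile genes). Gates other than the fibroblast gate rest on 2 markers each, and of Pecam1 and Cdh5 only 1 exceeded the highest blank in every section, so these gates are named by their genes and not as cell types. The comparison cells, called other epithelial, had at least 3 transcripts of Cdh1, Krt7, Cldn4 and Gata3, lay in no gate and held at most 1 stromal or lymphoid marker transcript. Between 42.0% and 47.3% of filtered cells fell in none of these classes.

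Epithelial transcripts were present in cells of every gate. Transcripts of the 4 epithelial markers were at 20.3 ± 2.86 per 1000 panel transcripts in Pecam1/Cdh5-gated cells, 26.2 ± 5.36 in Pdgfrb/Rgs5-gated cells, 49.4 ± 5.35 in fibroblast-gated cells and 51.6 ± 6.10 in myeloid-gated cells, against 74.9 ± 5.92 in other epithelial cells (SD, n = 3). The share of cells with at most 1 such transcript was 46.8% to 61.9% in the Pecam1/Cdh5 gate and 18.8% to 21.8% in the fibroblast gate. The part of these transcripts in each result was not tested. The Pecam1/Cdh5, Pdgfrb/Rgs5, fibroblast and myeloid comparisons are also given for gated cells with at most 1 epithelial marker transcript, called purer below.

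In other epithelial cells, levels are given as transcripts per 1000 panel transcripts, a scale on which different genes cannot be ranked because probe numbers and efficiencies differ. Lrp5 stood at 31.0, 24.9 and 22.9 in tumours 1, 2 and 3, Lgr4 at 2.39, 1.65 and 1.06, and Znrf3 at 0.754, 0.527 and 0.629. All 3 genes were highest in tumour 1. Axin2 stood at 0.773, 0.341 and 3.22, and the high value of tumour 3 came from a single area that is described below. Outside that area tumour 3 had 0.438 Axin2 transcripts per 1000, between tumours 1 and 2. Lgr5 stood at 0.189, 0.150 and 0.182 and Rspo1 at 0.143, 0.132 and 0.148, against medians of 0.179, 0.171 and 0.166 for the blank codes in the same cells.

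**Figure D2:**
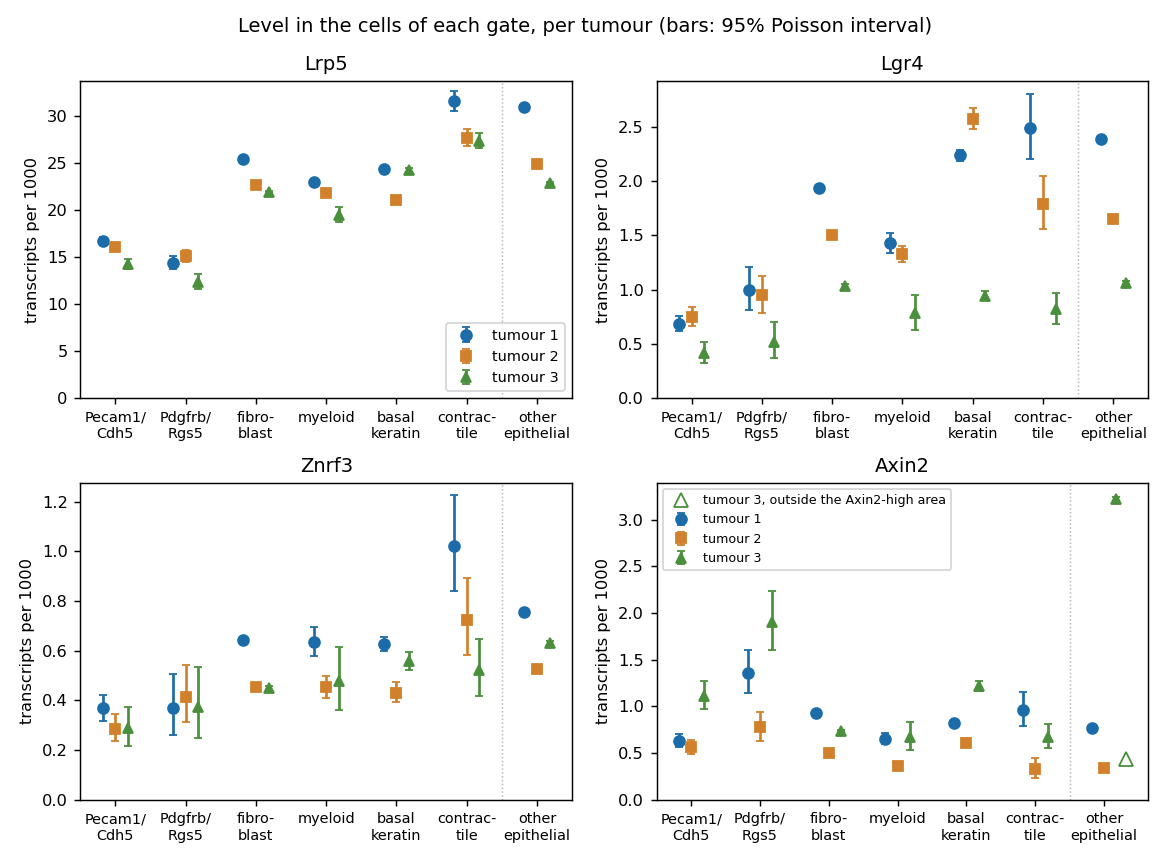
Level of Lrp5, Lgr4, Znrf3 and Axin2 in transcripts per 1000 panel transcripts, in the cells of each gate (left of the dotted line) and in other epithelial cells (right of it), 1 point per tumour, with 95% Poisson intervals that cover counting error only. Lrp5 and Lgr4 are lowest in Pecam1/Cdh5-gated and Pdgfrb/Rgs5-gated cells, and the open triangle shows Axin2 of tumour 3 without the Axin2-high area.

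Lrp5 and Lgr4 were both lower in cells of the vascular gates than in other epithelial cells, Lgr4 by the larger log2 change. In Pecam1/Cdh5-gated cells Lgr4 stood at 0.683, 0.751 and 0.412 per 1000 in tumours 1, 2 and 3, against 2.39, 1.65 and 1.06 in other epithelial cells. The groups did not overlap, and Lgr4 fell by 1.22 on the log2 scale (SE 0.19, adjusted p = 0.00293, edgeR quasi-likelihood test with Benjamini-Hochberg adjustment over 258 genes). Overlap of groups, here and below, is only a description, since the share of all 258 genes without overlap was not computed. Lrp5 stood at 16.8, 16.1 and 14.3 in the gate, against 31.0, 24.9 and 22.9, and fell by 0.51 (SE 0.11, adjusted p = 0.0101). Znrf3 stood at 0.368, 0.286 and 0.287, against 0.754, 0.527 and 0.629, and fell by 0.79 (SE 0.17, adjusted p = 0.00978). In gated cells the highest blank stood at 0.597, 0.685 and 0.730, above Znrf3 in each tumour and above Lgr4 in tumour 3.

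Lgr5 was called lower as well (log2 change -0.72, adjusted p = 0.00591), at blank-like levels of 0.0817 to 0.0988 in gated cells and 0.150 to 0.189 in other epithelial cells. In all, 4 of the 6 genes were called in the Pecam1/Cdh5 comparison, where 64.3% of all 258 genes were called. The 27 blank codes themselves moved between -1.06 and 1.48 there, with 11 called higher and 5 lower, so codes that measure no gene were called there as well. Rspo1 (-0.29, adjusted p = 0.276) was not called. Without tumour 1, Lrp5 (-0.38, adjusted p = 0.114) and Znrf3 (-0.73, adjusted p = 0.0618) were not called, and neither was without tumour 2 (-0.52 at 0.0598 and -0.81 at 0.0793), while Lgr4 was called in each case.

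Axin2 turned its sign in the Pecam1/Cdh5 gate when the Axin2-high area of tumour 3 was left out, and it was called in neither fit. The area is defined by Axin2 in other epithelial cells, which are the comparison cells. Leaving it out therefore lowers the comparison level of tumour 3 by construction. Adjusted p-values of Axin2 without the area, here and below, depend on that choice. With all cells Axin2 stood at 0.633, 0.562 and 1.11 in gated cells, against 0.773, 0.341 and 3.22 in other epithelial cells (-0.14, adjusted p = 0.775). Without the area tumour 3 had 0.506, against 0.438, and the change was 0.49 (adjusted p = 0.106), with tumours 2 and 3 higher and tumour 1 lower. In purer Pecam1/Cdh5-gated cells without the area it was 0.73 (adjusted p = 0.0629), and it was called when tumour 1 was left out (1.14, adjusted p = 0.00231) but not without tumour 2 or tumour 3.

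In those purer Pecam1/Cdh5-gated cells Lgr4 stood at 0.375, 0.529 and 0.238, against 2.39, 1.65 and 1.04 in other epithelial cells (-1.71, SE 0.29, adjusted p = 0.00138), and it was called without each tumour in turn (-1.96 to -1.40). Lrp5 (-0.54, adjusted p = 0.0329) and Znrf3 (-0.72, adjusted p = 0.0291) were called as well, and Lgr5 was not (-0.56, adjusted p = 0.0690). These were 3 of 6 genes, where 62.8% of all genes were called. Without tumour 1 neither Lrp5 (-0.44, adjusted p = 0.296) nor Znrf3 (-0.51, adjusted p = 0.205) was called, and Znrf3 was also not called without tumour 2 (-0.80, adjusted p = 0.102).

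In Pdgfrb/Rgs5-gated cells Lrp5 stood at 14.4, 15.1 and 12.4 per 1000 in tumours 1, 2 and 3, against 31.0, 24.9 and 22.9 in other epithelial cells. The groups did not overlap, and Lrp5 fell by 0.58 (SE 0.13, adjusted p = 0.00927). Lgr4 stood at 0.999, 0.945 and 0.514, against 2.39, 1.65 and 1.06, and fell by 0.71 (SE 0.19, adjusted p = 0.02). These were the 2 genes called of 6, where 45.7% of all genes were called. The Lgr4 call was lost without tumour 1 (-0.71, adjusted p = 0.103) and without tumour 2 (-0.80, adjusted p = 0.0915).

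Axin2 went the other way from the receptors in the Pdgfrb/Rgs5 gate once the Axin2-high area of tumour 3 was left out. With all cells it stood at 1.36, 0.776 and 1.902 in gated cells, against 0.773, 0.341 and 3.22 in other epithelial cells (log2 change 0.74, adjusted p = 0.133). Without the area tumour 3 had 0.755 in gated cells against 0.438 in other epithelial cells, and Axin2 was higher in the gate in 3 of 3 tumours (1.25, SE 0.20, adjusted p = 0.00209). In tumour 3 this direction depends on leaving out an area chosen by Axin2 of the comparison cells. Tumours 1 and 2 held no such area, so their levels do not depend on it. In gated cells with at most 1 epithelial marker transcript, also without the area, it stood at 1.49, 1.11 and 0.725, against 0.773, 0.341 and 0.438. That difference was 1.57 (SE 0.32, adjusted p = 0.00173), and it was called without each tumour in turn (1.27 to 1.68). TMM scaling moved changes upward over all cells of this gate, so rises came out larger than ratios of the levels. These purer cells were not fitted without TMM. The difference in purer cells rests on 73, 31 and 24 Axin2 transcripts.

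In those same purer cells Lrp5 stood at 9.83, 8.57 and 6.73 and Lgr4 at 0.549, 0.429 and 0.151, and both were again called lower (-1.20, adjusted p = 0.000115; -1.77, adjusted p = 0.00109). Here 56.2% of all genes were called. The blanks moved between -1.39 and 2.46, with 6 called higher and 1 lower. Over all cells of the Pdgfrb/Rgs5 gate without the area, the highest blank stood at 0.951, 1.18 and 1.10 per 1000, so that Axin2 (1.36, 0.776 and 0.755) exceeded it in tumour 1 alone.

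The fibroblast gate, 18.7% to 26.5% of filtered cells, had 1 of the 6 genes called when all its cells were taken. This was Lgr5, at blank level (-0.34, adjusted p = 0.0343), where 48.1% of all genes were called, and it was not called without tumour 2 (-0.37, adjusted p = 0.108), without tumour 3 (-0.23, adjusted p = 0.210) or without the Axin2-high area. Lrp5 stood at 25.5, 22.6 and 21.9 in gated cells, against 31.0, 24.9 and 22.9 (-0.13, adjusted p = 0.348). Axin2 stood at 0.932, 0.502 and 0.739, against 0.773, 0.341 and 3.22, lower in tumour 3 alone (-0.35, not called). DESeq2 called 3 of the 6 genes, Lgr4, Lgr5 and Znrf3. It also called 15 of the 23 other Wnt genes of the panel, where edgeR called 5, and its share over all genes is not given.

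Fibroblast-gated cells with at most 1 epithelial marker transcript, without the Axin2-high area, had all 6 genes called. Lrp5 stood at 7.70, 7.27 and 8.78 per 1000 in tumours 1, 2 and 3, against 31.0, 24.9 and 23.0 in other epithelial cells, a fall by 1.59 on the log2 scale (SE 0.26, adjusted p = 0.000267). Znrf3 stood at 0.222, 0.160 and 0.210, against 0.754, 0.527 and 0.476, a fall by 1.42 (SE 0.23, adjusted p = 0.000227). Neither pair of groups overlapped, and both genes were called without each tumour in turn. Lgr4 stood at 0.796, 0.820 and 0.597, against 2.39, 1.65 and 1.04 (-0.99, SE 0.27, adjusted p = 0.00543), and it was not called without tumour 1 (-0.58, adjusted p = 0.193).

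Axin2 was higher in those purer fibroblast-gated cells, at 1.12, 0.837 and 0.876 per 1000 in tumours 1, 2 and 3, against 0.773, 0.341 and 0.438 in other epithelial cells. The groups did not overlap, the change was 1.08 (SE 0.26, adjusted p = 0.00307), and it was called without each tumour in turn (0.89 to 1.48). With the area kept, the same cells gave no call for Axin2 (0.22). The area was chosen by Axin2 of the comparison cells, so the call over all 3 tumours depends on that choice. All 6 genes were called in this comparison, including Lgr5 (-0.73) and Rspo1 (0.55, adjusted p = 0.0154) at blank level, where 77.9% of all genes were called and the blanks moved between -0.83 and 1.71 (7 called higher, 8 lower). Without tumour 1, Lgr5 (-0.57, adjusted p = 0.0934) and Rspo1 (0.45, adjusted p = 0.175) were not called. In purer cells without the area, Axin2 therefore went opposite to Lrp5, Lgr4 and Znrf3 in both the Pdgfrb/Rgs5 and the fibroblast gates. Znrf3 was not called in the first (-0.54, adjusted p = 0.224). Over all cells of the fibroblast gate without the area, 0 of the 6 genes were called. With the area kept, Axin2 and Lrp5 both had negative log2 changes over all cells of that gate, and neither was called.

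In myeloid-gated cells Lgr4 stood at 1.43, 1.33 and 0.780 per 1000 in tumours 1, 2 and 3, against 2.39, 1.65 and 1.06 in other epithelial cells (-0.62, SE 0.19, adjusted p = 0.00808). Lrp5 stood at 23.0, 21.8 and 19.5, against 31.0, 24.9 and 22.9 (-0.40, SE 0.16, adjusted p = 0.0374). Both were lower in 3 of 3 tumours, although the groups overlapped, and both were also called among purer myeloid-gated cells without the Axin2-high area (-1.43, adjusted p = 0.0035; -0.69, adjusted p = 0.0103). There 2 of 6 genes and 50% of all genes were called, and the Lrp5 call was lost without tumour 1 (-0.59, adjusted p = 0.0826) and without tumour 2 (-0.75, adjusted p = 0.0948). Axin2 was called lower (-0.84, adjusted p = 0.00709), but only with the Axin2-high area among the comparison cells, since it was not called without the area (-0.32, adjusted p = 0.15) or without tumour 3 (-0.16, adjusted p = 0.609). In all, 3 of 6 genes were called, where 39.9% of all genes were called and the blanks moved between -0.50 and 0.46. Leaving out tumour 1 ended the Lgr4 call (-0.45, adjusted p = 0.131), and leaving out tumour 2 or tumour 3 ended the Lrp5 call (-0.44 at 0.259 and -0.40 at 0.321).

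Basal keratin-gated and contractile-gated cells gave 0 of 6 calls by edgeR, where 24.4% and 19.4% of all genes were called. At an unadjusted p under 0.05 edgeR had 1 gene (Rspo1) in the basal keratin gate and 0 in the contractile gate, and DESeq2 called 2 (Rspo1 and Znrf3) and 0. Of the 23 other Wnt genes DESeq2 called 8 and 2 in these gates, and edgeR called 1 and 0. Here and below, shares of all genes called by DESeq2 or passing an unadjusted p are not given. Lgr4 in basal keratin-gated cells stood at 2.24, 2.57 and 0.944, against 2.39, 1.65 and 1.06 in other epithelial cells, higher in tumour 2 and lower in the other two. Rspo1 was higher in basal keratin-gated cells in 3 of 3 tumours without overlap, at 0.179, 0.231 and 0.168, against 0.143, 0.132 and 0.148, but the change of 0.42 was not called by edgeR (adjusted p = 0.0885) and its levels lay among the blanks. Lrp5 in contractile-gated cells stood at 31.6, 27.7 and 27.4, against 31.0, 24.9 and 22.9 (0.10, adjusted p = 0.489). Leaving out the 26 genes used by gates or as selecting genes moved the share of all genes called by at most 5.88 percentage points in any comparison.

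Other Wnt genes of the panel, 23 in number, include ligand, receptor, antagonist and intracellular genes, and are given with the share of all genes called in the same comparison. In Pecam1/Cdh5-gated cells 5 were called higher (Fzd10, Lef1, Sfrp4, Wnt1 and Wnt2) and 12 lower, among them the ligand genes Wnt5b and Wnt7b and the ligase gene Rnf43. That is 73.9% of the 23, against 64.3% of all genes. Over whole sections, 0 of the 5 higher genes and 11 of the 12 lower ones exceeded the highest blank in every tumour, and 11 blank codes were called higher in the same comparison. In Pdgfrb/Rgs5-gated cells 4 were higher and 9 lower, 56.5% against 45.7% of all genes, and of the 4 higher ones only Dkk3 exceeded the highest blank in every section. Dkk3, a Dickkopf family gene, stood there at 1.48, 1.62 and 1.82 per 1000, against 0.663, 0.406 and 1.44 in other epithelial cells (1.5, adjusted p = 0.00596). Rnf43 stood at 1.11, 1.48 and 1.54, against 3.39, 2.98 and 3.72 (-0.97, adjusted p = 0.00391).

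In the fibroblast gate 4 of the 23 were higher (Dkk3, Sfrp2, Sfrp4 and Wnt2) and 1 was lower (Wnt6), 21.7% against 48.1% of all genes. Of these, Dkk3 and Sfrp2 exceeded the highest blank in every section. In the purer fibroblast-gated cells without the area the same 4 were higher, and 10 were lower, including Lrp6, Rnf43, Tcf7l2 and Wnt5b, in all 60.9% against 77.9% of all genes. The median change of the 23 was -0.47, against -0.86 for the 6 genes and -0.15 for all genes tested. The median of the 6 rests in part on Lgr5 and Rspo1, which lay among the blanks. In myeloid-gated cells 8 were called, each of them lower, 34.8% against 39.9% of all genes. Sfrp2, a secreted antagonist gene, was the only one called in basal keratin-gated cells (higher), and edgeR called 0 in contractile-gated cells, with 5 at an unadjusted p under 0.05 and 2 called by DESeq2 (Wnt2 and Wnt7b).

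Position within the tumour and the neighbourhood of other cells gave no edgeR call for any of the 6 genes among other epithelial cells. At an unadjusted p under 0.05 there was 1 gene at the margin (Lgr5), 1 near fibroblast-gated cells (Axin2) and 0 near Pecam1/Cdh5-gated cells, and DESeq2 called 0 in each of these comparisons. At the margin, up to 150 µm from the outer edge, Axin2 stood at 1.59, 0.470 and 0.693 per 1000 in tumours 1, 2 and 3, against 0.739, 0.333 and 3.53 in the interior, at 500 µm or more. It was higher at the margin in tumours 1 and 2 and lower in tumour 3, and without the Axin2-high area the change was 0.51 with 3 of 3 tumours higher (adjusted p = 0.197), against -0.42 with it (adjusted p = 0.632). Without the area and without tumour 2 it was called (0.71, adjusted p = 0.00664), and without tumour 1 or tumour 3 it was not (0.33, adjusted p = 0.594; 0.55, adjusted p = 0.384). Lrp5 stood at 35.1, 31.9 and 23.2 at the margin, against 31.0, 24.6 and 22.8. In the margin comparison 4.26% of all genes were called, among them 1 of the other 23 Wnt genes, Wnt5b, which fell by 0.66 (adjusted p = 0.0390).

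Epithelial cells with a fibroblast-gated cell centre within 25 µm, set against those with none within 75 µm, had Lrp5 at 31.6, 26.1 and 24.0 per 1000, against 23.4, 21.6 and 17.5 far away. The 2 sets did not overlap, but Lrp5 was not called (0.46, SE 0.27, adjusted p = 0.327). Tumour 1 had only 64 far cells with 7043 panel transcripts, which limits this comparison. Axin2 stood at 0.782, 0.328 and 1.76 near fibroblast-gated cells, against 0.852, 0.434 and 11.7 far from them (-1.14, adjusted p = 0.0578), and at -0.50 (adjusted p = 0.245) without the area. In this comparison 10.1% of all genes were called, among them the antagonist gene Wif1 (2.87, adjusted p = 3.12e-08) and Wnt5b (1.03, adjusted p = 0.0128), both higher near fibroblast-gated cells.

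Near Pecam1/Cdh5-gated cells Lrp5 stood at 33.1, 26.1 and 26.4, against 30.8, 24.5 and 22.4 far from them, higher in 3 of 3 tumours and not called (0.11, adjusted p = 0.288). The share of all genes called was again 10.1%, and of the other Wnt genes Wnt7b was called lower near Pecam1/Cdh5-gated cells (-0.59, adjusted p = 0.0108). Lgr4 stood at 2.36, 1.69 and 1.12 near, against 2.46, 1.64 and 1.05 far. The difference was -0.01 (SE 0.10, adjusted p = 0.972).

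Cells that carried a ligand or an antagonist transcript were compared in the same way. Epithelial cells with at least 3 transcripts of Wnt7b, a Wnt ligand gene, had Lgr4 at 2.88, 1.80 and 1.14 per 1000, against 2.20, 1.64 and 1.03 in cells with 0, higher in 3 of 3 tumours but not called (0.37, SE 0.22, adjusted p = 0.347). In the Wnt7b comparison edgeR called 0 of the 6 genes, with 0 at an unadjusted p under 0.05 and 0 called by DESeq2, and 3.1% of all genes. Cells with at least 3 transcripts of Wif1, whose product binds Wnt ligands outside the cell, had Znrf3 at 1.08, 0.882 and 1.07, against 0.717, 0.517 and 0.610 in cells with 0. Lrp5 stood at 36.4, 34.5 and 35.9 in those cells, against 29.96, 24.7 and 22.3.

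Neither gene overlapped between Wif1-positive and Wif1-zero cells, and neither was called by edgeR (Znrf3 0.83, SE 0.30, adjusted p = 0.202; Lrp5 0.59, SE 0.20, adjusted p = 0.183). How many of all genes were without overlap in this comparison was not computed. Only 0.388% of all genes were called there, the selecting gene itself, so that this fit made almost no calls. Of the 6 genes edgeR called 0 and had 2 at an unadjusted p under 0.05 (Lrp5 and Znrf3), and DESeq2 called these 2 in the same sums.

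Spatial structure was measured over 100 µm bins with at least 20 other epithelial cells, 3376, 2793 and 4166 bins in tumours 1, 2 and 3. Moran's I, an index of how alike neighbouring bins are, was 0.438, 0.491 and 0.608 for Lrp5, against 0.191, 0.182 and 0.250 for the highest blank code. Lrp5 was the only one of the 6 genes above the highest blank in every tumour. Lgr4 reached 0.436, 0.167 and 0.439, below the highest blank in tumour 2. Znrf3 reached 0.0792, 0.128 and 0.450 and Axin2 0.240, 0.0698 and 1.05 (the index can pass 1 because each bin counts once per filled neighbour), so both were high in tumour 3. Without the Axin2-high area tumour 3 had 0.185 for Znrf3 and 0.236 for Axin2, below its highest blank at 0.261. For Axin2 the lower value follows in part from the definition of the area. Lgr5 and Rspo1 stayed at or below 0.0950.

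Genes whose bin pattern was most like that of each gene are given by the mean Pearson r over the 3 tumours, as a description, since bins of a section share depth and tissue. For Lrp5 these were Id2 (0.536), a helix-loop-helix inhibitor gene, the Wnt receptor gene Fzd2 (0.534), the proliferation marker gene Mki67 (0.526), Wwc1 (0.471), which encodes the Hippo regulator KIBRA, and Rnf43 (0.449). For Znrf3 they were Rnf43 (0.273), the DNA topoisomerase gene Top2a (0.257), Mki67 (0.243), Lrp5 (0.221) and Id2 (0.218). The likeness of Znrf3 to Rnf43 was 0.135, 0.216 and 0.467 in tumours 1, 2 and 3. Without the Axin2-high area the 5 most like Znrf3 were Wif1 (0.244), Mki67 (0.233), Lrp5 (0.230), Fzd2 (0.229) and Top2a (0.221), so Rnf43 and Id2 were no longer among them. For Lgr4 they were Thbs1 (0.221), Sfrp1 (0.191), Egr1 (0.176), Wnt7b (0.168) and Cdh1 (0.165). These differed between tumours, at 0.378, -0.03 and 0.152 for Wnt7b and 0.233, 0.0322 and 0.307 for Sfrp1. Znrf3 and Lrp5 correlated in each tumour (0.237, 0.160 and 0.266), outside the range that either gene showed with any blank.

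Znrf3 and Axin2 went together in tumour 3. Their bin correlation was 0.0918, 0.0329 and 0.461 in tumours 1, 2 and 3, and 0.116 in tumour 3 without the Axin2-high area. Within strata of equal depth, 911, 313 and 3974 other epithelial cells held both transcripts, against 802, 320 and 2105 expected from their separate frequencies. The ratios were 1.14, 0.979 and 1.89, where pairs of either gene with a blank ranged from 0.704 to 1.41 over the tumours. Without the area the ratio in tumour 3 was 1.13. The area is defined by Axin2, so the lower correlation and ratio without it follow in part from that definition.

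**Figure D3:**
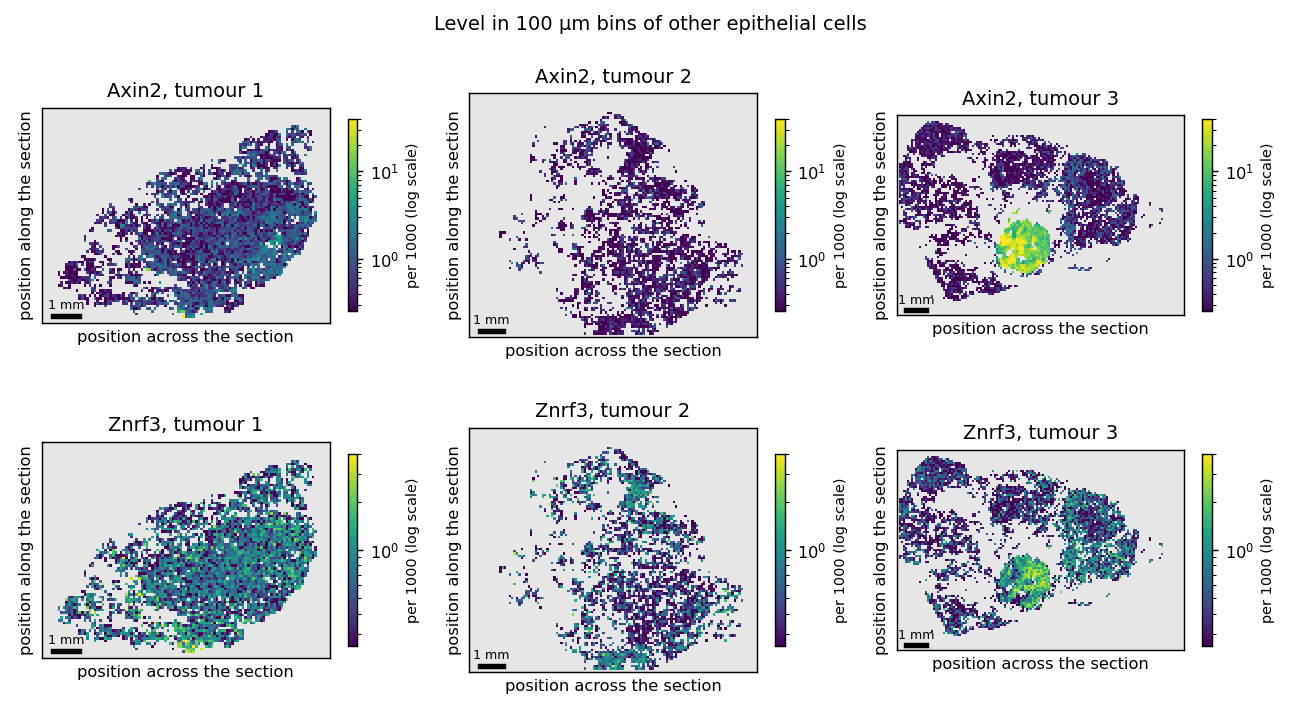
Level of Axin2 (top) and Znrf3 (bottom) in transcripts per 1000 panel transcripts, in 100 µm bins with at least 20 other epithelial cells, for the 3 tumours (log colour scale; levels under 0.25 are drawn at 0.25, and the colour ends at 40 for Axin2 and at 4 for Znrf3; bar, 1 mm). A single round area of tumour 3 carries nearly all bins with high Axin2, and Znrf3 is also higher there.

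The Axin2-high area of tumour 3 was defined after the maps were seen, as the largest connected set of bins with at least 5 Axin2 transcripts per 1000. Only bins with at least 20 other epithelial cells could count toward it. The definition uses Axin2 itself, so its Axin2 values are a description with no test, and with 1 area in 1 tumour no difference between inside and outside was tested. It held 515 such bins, the next largest set held 5, and with enclosed bins it covered 5.41 mm2. Other epithelial cells numbered 36801 inside and 175431 outside. Axin2 stood at 18.2 per 1000 inside (95% Poisson interval 18.1 to 18.4, counting error only) and 0.438 outside (0.429 to 0.448), a 41.6-fold difference. The area held 88.5% of the Axin2 transcripts of the section's other epithelial cells with 17.3% of those cells.

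High Axin2 in the bins of the area follows from its definition and does not show how evenly the gene was spread. Over 520 bins inside it, the lowest, median and highest levels were 3.14, 14.9 and 75.3 per 1000. At least 1 Axin2 transcript was found in 64.4% of the cells inside and in 4.38% of the cells outside, and 677 other epithelial cells inside held 10 or more, against 4 outside. Median depth was 84 panel transcripts among all filtered cells inside and 95 outside, and blanks took 0.419% and 0.491% of transcripts, so cells inside were shallower and held a smaller share of blank transcripts.

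Of the other 5 genes, only Znrf3 differed by more than 2-fold. It stood at 1.45 per 1000 inside (1.41 to 1.49) and 0.477 outside (0.467 to 0.486), 3.05-fold higher. Lgr4 stood at 1.17 inside and 1.04 outside, Lrp5 at 22.2 and 23.0, Lgr5 at 0.186 and 0.181, and Rspo1 at 0.131 and 0.151. The blanks' folds ranged from 0.345 to 1.49, and 7.36% of the 258 genes were at least 2-fold higher inside and 13.2% at least 2-fold lower. With the threshold at 3 or 10 per 1000 in place of 5, the fold was 3.03 or 3.05 for Znrf3 and 41.9 or 31.8 for Axin2.

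Among the other 23 Wnt genes 3 were at least 2-fold higher inside the area and 4 at least 2-fold lower. The higher ones were Rnf43, the paralogue of Znrf3, at 6.45 inside and 3.22 outside (2.01-fold), Dkk3 at 3.28 and 1.10 (2.99-fold), and the non-canonical ligand gene Wnt5a at 4.02 and 1.69 (2.38-fold). The lower ones were Wnt7b at 0.372 inside and 2.88 outside, Wnt5b at 4.27 and 13.3, the antagonist gene Sfrp1 at 2.33 and 5.85, and Wif1 at 0.410 and 0.914. The 3 ligand genes among these thus differed in direction.

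**Figure D4:**
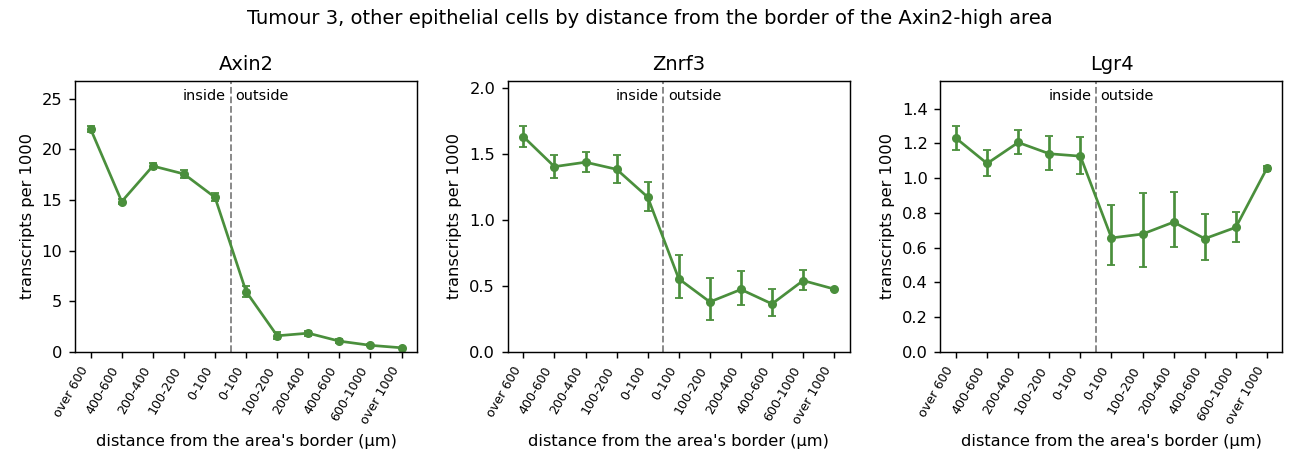
Levels of Axin2, Znrf3 and Lgr4 in transcripts per 1000 panel transcripts in other epithelial cells of tumour 3, by distance from the border of the Axin2-high area (dashed line; inside on the left), with 95% Poisson intervals. Axin2 was at 15.3 in the last 100 µm inside and 5.95 in the first 100 µm outside, and Znrf3 at 1.17 and 0.554.

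Axin2 and Znrf3 both changed over a short distance at the border. For Axin2 this follows in part from the definition, since the border is drawn at its threshold. Axin2 stood at 22.0 per 1000 deeper than 600 µm inside, 15.3 in the 100 µm inside the border, 5.95 in the first 100 µm outside, 1.58 at 100 to 200 µm and 0.391 beyond 1000 µm. Znrf3 stood at 1.63, 1.17, 0.554, 0.378 and 0.476 in the same steps. Lgr4 stood at 1.13 in the 100 µm inside the border and 0.656 in the first 100 µm outside (0.498 to 0.847), and it was back at 1.06 beyond 1000 µm. Few other epithelial cells lay just outside, 1196 within 100 µm, against 4258 in the 100 µm inside. Bins with few of these cells could not count toward the area, so this contrast follows in part from the definition.

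Cell by cell, Znrf3 followed Axin2 inside the area. Per 1000 panel transcripts other than Axin2, it stood at 1.14 in the 13094 cells inside with 0 Axin2 transcripts, 1.47 in the 14756 cells with 1 or 2, 1.73 in the 6274 cells with 3 to 5, and 2.08 in the 2677 cells with 6 or more. Rnf43 stood at 5.67, 6.57, 7.15 and 8.26 and Lgr4 at 1.04, 1.15, 1.36 and 1.503 in the same classes, whereas Lrp5 stood at 22.1, 22.9, 23.5 and 21.4 without a trend. Median depth was 74, 90, 105 and 127 panel transcripts, so deeper cells fell in the higher classes, and the part of depth in these steps was not tested. Cells inside with 0 Axin2 transcripts had more Znrf3 (1.14) and Rnf43 (5.67) than all cells outside (0.477 and 3.22). At their median depth of 74 panel transcripts, a count of 0 does not show that a cell lacked Axin2.

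Across bins within the area the relation was weak. The correlation of Axin2 with Znrf3 over 520 bins was 0.0804, with Rnf43 -0.0136, with Lgr4 0.0848 and with Lrp5 -0.202, where blanks ranged from -0.171 to 0.0421. Over all bins of tumour 3 the correlation of Axin2 with Znrf3 was 0.461, and it was smaller both within the area and outside it (0.116). The area is cut by Axin2 itself, which narrows the range of Axin2 on each side. The smaller correlations therefore follow in part from the definition.

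**Figure D5:**
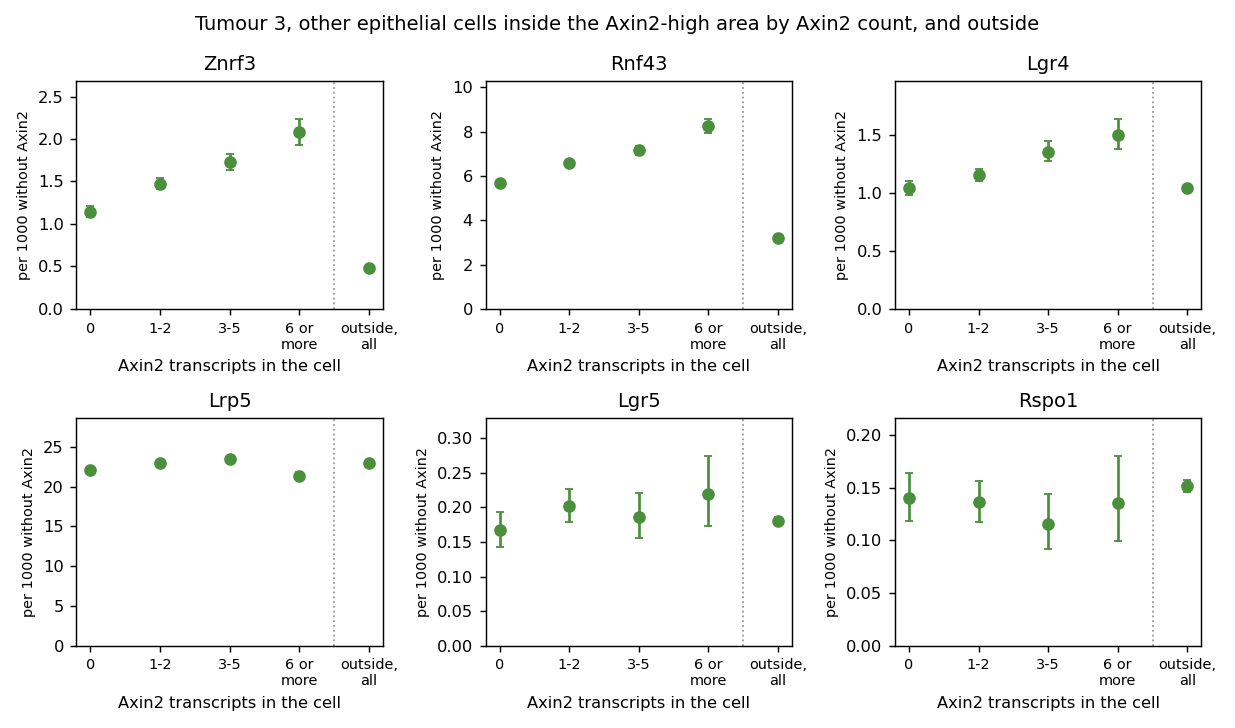
Level of Znrf3, Rnf43, Lgr4, Lrp5, Lgr5 and Rspo1 per 1000 panel transcripts other than Axin2, in other epithelial cells inside the Axin2-high area of tumour 3 by the number of Axin2 transcripts in the cell (left of the dotted line), and in all those outside (right of it), with 95% Poisson intervals. Znrf3, Rnf43 and Lgr4 are higher in the classes with more Axin2, and Lrp5, Lgr5 and Rspo1 show no such order.

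The area also differed in its cell content. Only bins with at least 20 other epithelial cells could count toward the area. Its larger share of those cells and smaller shares of others therefore follow in part from the definition. Of the filtered cells, 60685 lay inside and 612907 outside. Fibroblast-gated cells made up 3.29% inside and 20.2% outside, basal keratin-gated cells 0.412% and 2.14%, and other epithelial cells 60.6% and 28.6%. Myeloid-gated cells made up 0.0511% inside and 0.141% outside.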

How the data were processed

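The deposited files hold counts of transcripts for each segmented cell, gene and blank code, not normalized, per the file headers, and volumes and cell centres in unstated units taken as µm3 and µm. Scanpy 1.9.3 is listed, with no role, in the submitters' processing notes, and no source used here describes segmentation or decoding. The set of 6 genes, itself given by name, and the marker lists and comparisons were chosen with earlier results of these data known. Genes are named if they are among the 6, gate markers, the 23 other Wnt genes, or the 5 with the most similar bin pattern (log2 of level plus a pseudocount of 1), apart from genes of the closing section chosen after their values were seen.

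Cells were kept from 20 panel transcripts upward, with volumes of at least 50 µm3 and at most 3 section medians. Doublets were not called, and mixing was addressed by the purer gates. Counts were summed per tumour and arm (6 sums per comparison) and tested in R 4.3.3 with edgeR 4.0.16: filterByExpr, TMM, the tumour as a block, the two-sided quasi-likelihood test, Benjamini-Hochberg over 258 genes, threshold 0.05. Fold changes follow TMM and can be smaller or larger than ratios of the levels. In the Pecam1/Cdh5 and Pdgfrb/Rgs5 gates TMM moved changes upward, so falls came out smaller and rises larger. The alternatives were DESeq2 1.42.0, other scalings, filters, gates, distances and leaving out each tumour. On simulated sums with 60 genes changed by 1 on the log2 scale, 60 (Pdgfrb/Rgs5 gate), 58 (margin) and 59 (Wnt7b) were recovered, with 1, 2 and 0 false calls. The simulation gave all genes the same spread beyond counting error and both arms of a tumour the same tumour effect. Changed genes were drawn from those with enough counts. Mixing and false decoding were not simulated, so false calls in the real data can be more frequent. In the real Pdgfrb/Rgs5 comparison 6 blank codes were called higher and 1 lower. Both arms come from the same section, which is where the pairing by tumour comes from.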

Additional observations from a re-analysis of the deposited data

How the results depend on the processing

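Over 11 comparisons, 834 values of the 6 genes were recomputed under an alternative, and 724 kept their sign and their side of the threshold. A call was lost in 27 and gained in 26. The sign turned with neither value called in 56, of which 23 were Axin2, and with a call in 1: Axin2 in the fibroblast gate, at -0.35 with all cells and 1.08 in cells with at most 1 epithelial marker transcript outside the Axin2-high area. The causes were not tested, except that leaving out that area removes 88.5% of the Axin2 transcripts of tumour 3's other epithelial cells. Leaving out a tumour gave 2 to 4 genes called in the Pecam1/Cdh5 comparison, 1 to 3 for Pdgfrb/Rgs5, 0 to 1 for fibroblasts and 1 to 2 for myeloid cells. Without the replicate block, which pairs the arms of a tumour, 1 gene was called for Pdgfrb/Rgs5 (2 with it), 0 for fibroblasts (1 with it) and 0 for myeloid cells (3 with it), and the number called moved by no more than 1.5 times elsewhere.

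For the fibroblast gate, DESeq2 called 3 genes, at most 1 epithelial marker transcript gave 5 (6 also without the area), fibroblast markers at 20% or more of a cell's transcripts gave 5, and leaving out the area alone gave 0. Of all genes, 77.9% were called in the setting that gave 6 and 42.2% in the setting that gave 0. Shares of all genes called by DESeq2 and under the other alternatives of this section are not given. For basal keratin-gated cells DESeq2 called 2 (Rspo1 and Znrf3) and gates of at least 5 marker transcripts 1 (Rspo1). For the margin, library size alone called 1 (Lgr5), and for Wif1 DESeq2 called 2 (Lrp5 and Znrf3), where the edgeR test called 0. With library sizes in place of TMM, the median change of all genes moved from -0.13 to -0.34 in the Pecam1/Cdh5 gate, 0.09 to -0.24 in the Pdgfrb/Rgs5 gate, -0.08 to 0.05 in the myeloid gate, 0.00 to 0.24 at the margin, 0.00 to -0.16 for Wnt7b and -0.08 to -0.18 for Wif1. False decoding limits Lgr5 and Rspo1, which lay among the blanks in every section, and also Znrf3 and Axin2, which lay below the highest blank in some cell groups, large ones included: Znrf3 at 0.456 against 0.499 per 1000 in fibroblast-gated cells of tumour 2, and Axin2 at 0.341 against 0.432 in its other epithelial cells. The alternatives chosen after seeing the data were the area, purity and fibroblast-share settings.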

Other observations

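Genes outside the Wnt lists also differed between the inside and the outside of the Axin2-high area of tumour 3 among other epithelial cells. They were chosen after their values were seen. The interferon-response genes Mx1, Isg15 and Irf7 stood at 12.8, 10.3 and 31.2 transcripts per 1000 inside, against 1.09, 1.96 and 8.80 outside, and the transcription factor gene Klf4 at 4.12 inside against 1.18 outside. Mx1 did not follow the border: it stood at 6.34 at 200 to 400 µm inside, 9.29 at 100 to 200 µm inside, 15.3 in the first 100 µm outside and 8.20 at 200 to 400 µm outside. Over 520 bins within the area, Klf4 correlated with Axin2 at 0.432, Isg15 at 0.267 and Mx1 at 0.106, where blanks reached at most 0.0421.

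Cells of any class that passed the depth and volume filters and held 10 or more Axin2 transcripts were rare outside that area. Tumour 1 held 46, of which 45 lay along straight lines in the section, and these 46 held 1.63% of its Axin2 transcripts. Tumours 2 and 3 held 5 and 14, of which 0 lay along such lines. The part of an imaging fault in these lines was not tested. Leaving these cells out changed the number of the 6 genes called in none of the 11 comparisons.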
